A study of Mus musculus with 48 samples.

Results

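Liver RNA of 8 Pparα hep-/- and 8 WT mice fed a high-fat diet (HFD) was compared across all genes, with 1 array per mouse and the wash batch of the arrays as a covariate. The members were the 16 arrays, of 48 in the series, whose labels carry the genotype PPARaLKO or PPARaWT together with the diet HFD. The comparison asks what the loss of Pparα in hepatocytes changes in the liver of mice on this diet. All mice were males on a C57Bl6J background, 20 weeks old at sampling, and the labels give 12 weeks of a diet containing 60% fat, while the study's methods give a shorter time on it. Pparα hep-/- mice were albumin-Cre Pparα flox/flox animals, in which Cre driven by the albumin promoter removes exon 4 of Ppara in hepatocytes, and the other liver cells keep the gene. WT mice were bought from a breeder and were not Cre-negative littermates, so the deletion, the Cre transgene, the floxed allele with its flanking chromosome, and the breeding origin cannot be told apart. Mice of both genotypes on the control diet (CTRL) and whole-body Pparα-/- mice on the HFD, with 8 mice each, were used for reference. Mice were housed at thermoneutrality and killed in the fed state.

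PPARα is a nuclear receptor that binds fatty acids and, as a dimer with RXR, activates genes of fatty acid transport, mitochondrial and peroxisomal β-oxidation, ω-hydroxylation and ketone body formation. Its response element is a direct repeat of AGGTCA spaced by 1 base. In liver it is known for the response to fasting and to dietary fat, and for restraining inflammatory gene expression.

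limma called 8893 of 33323 tested probes (26.7%) with an adjusted p no higher than 0.05. In Pparα hep-/- mice 4416 of them were higher (49.7%) and the other 4477 lower. When each array was centred on its median instead of quantile normalized, 37.7% of the called probes were higher, and with the processed signal 37.8%. Counted by gene, with the tested probe of highest mean signal for each, 5113 of 16419 genes (31.1%) were called, 2817 higher (17.2%) and 2296 lower (14%). Most of these differences were small, with a median size of 0.38 on the log2 scale, and 281 genes were higher and 168 lower by at least 1. The values of the 8 and 8 mice did not overlap for 302 genes (1.84%), 113 with every Pparα hep-/- mouse above every WT mouse and 189 with every one below. The fit gives each array a weight that falls as the array departs from its group. With equal weights only 1883 genes (11.5%) were called, 959 higher (5.84%) and 924 lower (5.63%), and 1861 of these were among the 5113. For each gene list the count with equal weights on the HFD is therefore given too.

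The 16 arrays had median intensities of 62.5 to 82.5 against a local background of 23 to 35, with 30654 to 36819 spots well above background and 0 saturated. Arrays have no reads to count, and precision is set by the 8 mice per group and by signal over background. Bulk liver cannot tell fewer cells of a type from less RNA per cell. The hepatocyte markers were at the same summed level in both groups (20.69 to 20.81 in WT and 20.73 to 20.83 in Pparα hep-/- mice, log2), so the labelled tissue carried its defining markers.

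WT mice 1, 2 and 6 stood apart from the other 5 WT mice and carried the lowest weights, at 0.537, 0.343 and 0.372. In mice 1 and 2 the mRNA of adipsin (Cfd), a complement protease best known from adipocytes, was at 7.49 and 5.74, against 13.9 to 15.51 in the other 6 WT mice. The same 2 mice had the highest values of the acute-phase protein lipocalin 2 (Lcn2, 17.3 and 17.63) and of the summed neutrophil markers (13.77 and 15.19, against 10.59 to 11.29 in the other WT mice). WT mouse 6 had the highest WT values of Col1a1 (12.63), Trem2 (11.54) and Gpnmb (9.19), all within or above the range of the Pparα hep-/- mice. WT mouse 5 had a summed B and plasma cell marker level of 12.48, against 9.5 to 10.56 in the other 15 mice. What sets these mice apart was not tested. They were picked by values of this kind, so counts and differences without them are a description and support no direction.

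**Figure D1:**
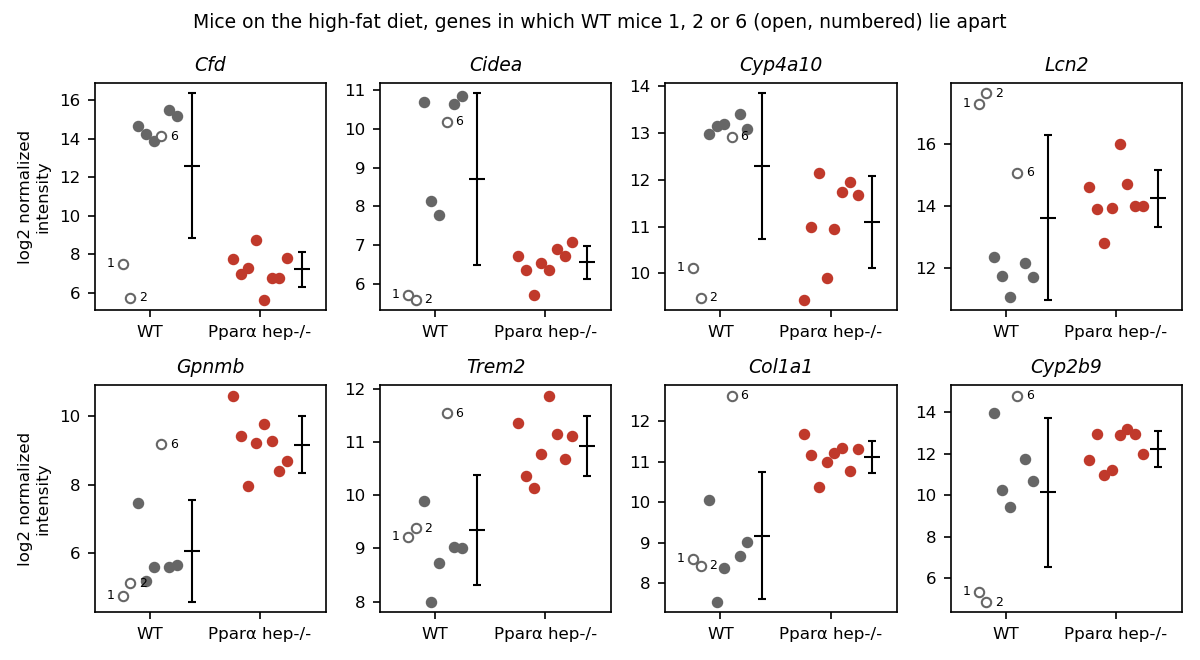
Log2 normalized intensity of 8 genes in the liver of each WT and Pparα hep-/- mouse on the HFD (points), with the mean and SD of 8 mice beside each group. WT mice 1, 2 and 6 are open and numbered. Mice 1 and 2 are low in Cfd, Cidea, Cyp4a10 and Cyp2b9 and high in Lcn2, and mouse 6 is high in Gpnmb, Trem2 and Col1a1.

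The targeted gene was measured with 2 probes, which lie in 1 exon outside the deleted exon 4, so they report the amount of transcript but not the deletion itself. At the brighter Ppara probe (chr15:85632110-85632169, mm9) the lowest, median and highest log2 intensities were 14.65, 15.07 and 15.24 in WT mice and 14.11, 14.24 and 14.55 in Pparα hep-/- mice. Every Pparα hep-/- mouse was below every WT mouse, by -0.85 (SE 0.087, adjusted p = 5.12e-10), or 1.8-fold. The other probe gave -0.68 (SE 0.083, adjusted p = 3.34e-08). On the same diet Pparα-/- mice were -1.08 below WT, and Pparα hep-/- mice were higher than Pparα-/- mice by 0.23 (adjusted p = 0.0238).

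The mRNA of most mitochondrial fatty acid β-oxidation genes was lower in Pparα hep-/- livers. Of 22 tested genes of the pathway and its carnitine shuttle, 15 fell and 0 rose, with a median difference of -0.46 against -0.004 over all genes. With equal weights 13 fell. For 6 genes the mice of the genotypes did not overlap. Eci2, an isomerase needed for unsaturated fatty acids, had log2 intensities of 15.25, 15.65 and 15.79 in WT mice (lowest, median, highest) and 13.99, 14.32 and 14.71 in Pparα hep-/- mice, a difference of -1.32 (SE 0.084, adjusted p = 1.99e-16) or 2.5-fold. Slc25a20, the carnitine-acylcarnitine carrier of the inner membrane, went from 10.48, 11.14 and 11.36 to 9.65, 9.99 and 10.39, a difference of -1.16 (SE 0.12, adjusted p = 1.59e-09). In both genes the lowest WT values belonged to mice 1 and 2, and these still lay above all 8 Pparα hep-/- mice.

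The electron transfer step showed the same separation. Etfdh, which passes electrons from acyl-CoA dehydrogenases to ubiquinone, was at 13.23, 13.95 and 14.26 in WT and 12.5, 12.83 and 12.94 in Pparα hep-/- mice, a difference of -1.13 (SE 0.078, adjusted p = 3.98e-15). Its partner Etfb differed by -0.72 (SE 0.046, adjusted p = 2.02e-16), with values of 16.42, 16.51 and 16.62 and 15.73, 15.8 and 15.94. Acadvl, the dehydrogenase of very long acyl chains, fell by 0.85 (SE 0.059, adjusted p = 4.12e-15), and Cpt2, the inner carnitine palmitoyltransferase, fell by 0.78 (SE 0.088, adjusted p = 5.09e-09). The other 7 of the 22 genes were not called. Cpt1a, the enzyme at the entry of the carnitine shuttle, was among them, and the 5 genes with a higher mean in Pparα hep-/- mice (Hadh, Echs1, Cpt1a, Acadm and Acad10) did not pass the test.

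**Figure D2:**
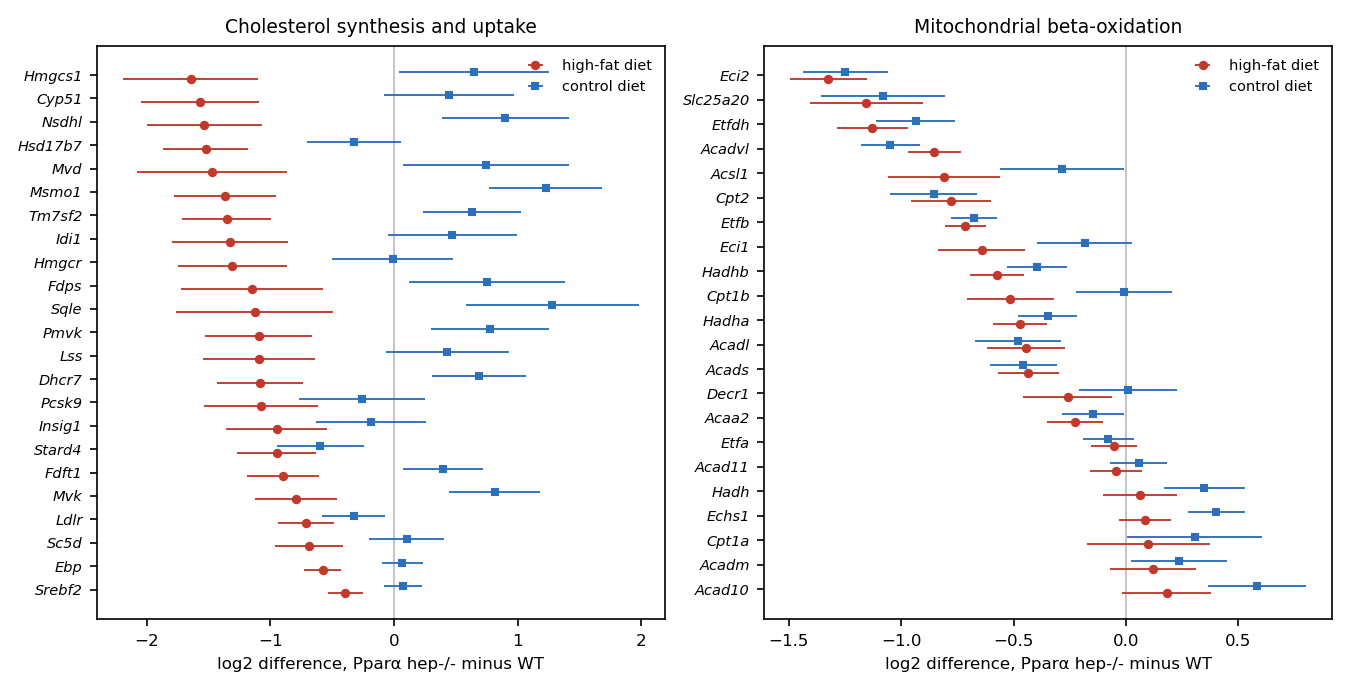
Log2 difference of Pparα hep-/- minus WT mice for tested genes of 2 lists, 23 of the 24 in the left panel, with 95% intervals of the fit, on the HFD (circles) and on the control diet (squares), with 8 mice per group. In the left panel the 23 cholesterol genes are below 0 on the HFD and most are above 0 on the control diet. In the right panel Eci2, Slc25a20, Etfdh, Acadvl, Cpt2 and Etfb are below 0 on both diets.

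In the peroxisome, 8 of 20 β-oxidation genes fell and 1 rose, with 6 lower and 0 higher at equal weights. Abcd2, a transporter of very long acyl-CoA into the peroxisome, was at 5.6, 7.6 and 8.67 in WT and 5.51, 5.89 and 6.43 in Pparα hep-/- mice, a difference of -1.69 (SE 0.23, adjusted p = 3.11e-07). The ranges overlapped through WT mice 1 and 2, at 5.76 and 5.6, and the other 6 WT mice were at 7.43 or more. Crat, which makes acylcarnitine, differed by -0.87 (SE 0.28, adjusted p = 0.0179) and was not called with equal weights (adjusted p = 0.334). Acox2, the oxidase of bile acid side chains, rose by 0.24 at 1 probe (adjusted p = 0.0473, and 0.264 with equal weights) and differed by 0.021 at its other probe (adjusted p = 0.908). Among 16 peroxisome biogenesis genes 4 fell and 1 rose, or 3 and 0 with equal weights. Pex16, which inserts membrane proteins, fell by 0.68 (SE 0.082, adjusted p = 2.54e-08). Pex6, an ATPase of receptor recycling, fell by 0.5 (SE 0.056, adjusted p = 3.55e-09), but its other probe differed by -0.13 (adjusted p = 0.38).

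Microsomal ω-hydroxylation is carried out by the Cyp4 family, whose Cyp4a members are classical PPARα targets. Of 10 tested genes 7 fell and 0 rose, but with equal weights only 1 fell, and 4 fell without WT mouse 7, WT mouse 8 or Pparα hep-/- mouse 6. Cyp4a10 was at 12.92 to 13.42 in 6 WT mice, at 10.12 and 9.47 in WT mice 1 and 2, and at 9.43, 11.34 and 12.15 (lowest, median, highest) in Pparα hep-/- mice. The 6 WT mice were thus above all 8 Pparα hep-/- mice, and the other 2 lay inside their range. The fitted difference was -1.59 (SE 0.5, adjusted p = 0.0145), with an adjusted p of 0.21 at equal weights. Cyp4a31 (difference -1.57, adjusted p = 0.0153) and Cyp4a14 (-1.13, adjusted p = 0.0197) were likewise not called with equal weights (0.244 and 0.279). Without WT mice 1, 2 and 6, a setting chosen after the data were seen, 8 of the 10 genes fell. The Cyp4a genes are close copies of each other, so a probe may read more than 1 of them.

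Acyl-CoA thioesterases, which release free fatty acids from CoA, moved in both directions: 4 of 13 rose and 2 fell, or 2 and 1 with equal weights. Acot8, of the peroxisome, was below every WT mouse in all 8 Pparα hep-/- mice (12.31, 12.75 and 12.84 and 11.78, 12.00 and 12.14), by -0.74 (SE 0.057, adjusted p = 1.2e-13). Acot10 rose by 0.76 (adjusted p = 3.75e-05, and 0.052 within the first wash batch), and Acot9 by 0.85 (adjusted p = 0.000121, and 0.0814 with equal weights), both mitochondrial. Acot12, of the cytosol, differed by -0.32 (adjusted p = 0.000942, and 0.256 with equal weights). Acot2 and Acot3, both known PPARα targets, were not called. Acot2 was at 6.19, 9.76 and 10.94 in WT and 9.35, 10.02 and 10.54 in Pparα hep-/- mice, a difference of 0.38 (SE 0.33, adjusted p = 0.424). Acot3 differed by 0.057 (SE 0.53, adjusted p = 0.951), and its other probe by -0.34 (adjusted p = 0.67). WT mice spanned over 4 log2 units in both genes, with the lowest value far below every Pparα hep-/- mouse.

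Of 8 ketone body genes, 5 rose and 1 fell, with 3 and 0 at equal weights. The list also holds genes of ketone transport and use, so these counts are not those of ketone formation alone. Of 8 fuel switch genes 2 rose and 1 fell, or 1 and 0 with equal weights, and 1 to 3 rose and 0 to 1 fell when 1 array was left out. Pdk4, the kinase that closes pyruvate dehydrogenase, was at 6.52, 8.55 and 9.64 in WT and 9.51, 10.16 and 10.69 in Pparα hep-/- mice, a difference of 1.47 (SE 0.31, adjusted p = 0.000411), with an adjusted p of 0.0578 within the first wash batch. The ranges met at their edge, with the lowest Pparα hep-/- mouse below the highest WT mouse. Of the 79 oxidative phosphorylation genes 5 rose and 11 fell, and with equal weights 4 rose and 1 fell. Leaving out 1 array gave 5 to 14 that fell, with 7 or fewer for 9 of the 16 arrays (WT mice 3, 4, 5, 7 and 8 and Pparα hep-/- mice 1, 3, 5 and 6). Of 81 cytoplasmic ribosomal protein genes 4 rose and 3 fell, against 0 and 2 with equal weights, and 1 rose without WT mouse 7 or 8, while 5 fell without Pparα hep-/- mouse 2 and 1 without Pparα hep-/- mouse 6.

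The response element was looked for in the promoters, taken as 250 bases before to 50 after each RefSeq start on GRCm38.p6, as 2 copies of AGGTCA spaced by 1 base on either strand, with at most 2 letters differing. Of the genes that fell 4.6% held such a match (85 of 1847), against 3.27% of those that rose (72 of 2199) and 4.1% of all tested genes with a promoter (530 of 12913). Among genes whose mice did not overlap, 4.55% of those that fell (7 of 154) and 7.41% of those that rose (6 of 81) held one. Among mitochondrial β-oxidation genes 3 of 19 held one (15.8%), among peroxisomal β-oxidation genes 1 of 14, among ω-hydroxylation genes 0 of 5 and among cholesterol genes 0 of 16. Of the 3 mitochondrial genes, Slc25a20 is the one that fell with no overlap between the genotypes. Gdf15 and Fabp1 hold matches with 1 letter differing. The promoters of Slc25a20, Gdf15 and Fabp1 are shown, chosen after the values and the letters had been seen, because they set a gene that fell beside one that rose and one that was not called. They are written in the direction of the gene, with the match in capitals, on chr9:108661886-108662185 (plus strand), chr8:70632407-70632706 (minus strand, 1 of 2 starts) and chr6:71199629-71199928 (plus strand).
Slc25a20: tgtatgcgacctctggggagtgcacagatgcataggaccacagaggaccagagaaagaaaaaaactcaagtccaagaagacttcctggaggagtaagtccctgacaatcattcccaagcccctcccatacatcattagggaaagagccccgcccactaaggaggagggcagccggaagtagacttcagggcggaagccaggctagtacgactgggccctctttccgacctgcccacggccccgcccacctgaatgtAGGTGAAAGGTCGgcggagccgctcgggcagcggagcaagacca
Gdf15: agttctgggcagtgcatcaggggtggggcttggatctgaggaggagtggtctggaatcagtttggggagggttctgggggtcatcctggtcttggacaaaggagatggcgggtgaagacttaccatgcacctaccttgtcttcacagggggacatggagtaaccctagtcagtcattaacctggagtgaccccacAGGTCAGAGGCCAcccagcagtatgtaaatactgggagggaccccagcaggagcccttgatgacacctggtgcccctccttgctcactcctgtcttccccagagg
Fabp1: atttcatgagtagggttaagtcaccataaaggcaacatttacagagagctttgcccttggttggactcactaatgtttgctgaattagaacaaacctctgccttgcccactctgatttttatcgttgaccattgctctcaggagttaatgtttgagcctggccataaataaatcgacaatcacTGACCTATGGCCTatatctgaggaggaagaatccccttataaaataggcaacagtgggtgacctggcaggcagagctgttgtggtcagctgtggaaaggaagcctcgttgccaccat
The match begins at position 6 after the start in Slc25a20, 55 bases before it in Gdf15 and 67 bases before it in Fabp1, where it lies on the opposite strand. Gdf15, a stress-induced hormone, was at 8.85, 10.52 and 11.71 in WT and 11.76, 12.2 and 12.6 in Pparα hep-/- mice and rose by 1.63 (SE 0.37, adjusted p = 0.000741, and 0.0958 within the second wash batch) with no overlap. Fabp1, the liver fatty acid binding protein, differed by -0.1 (SE 0.051, adjusted p = 0.146). A match is a description of letters in this window and not a measured binding site.

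Genes of lipid droplets and lipolysis moved both ways, with 4 of 19 higher and 6 lower (4 and 5 with equal weights). The largest falls were in genes that favour storage in droplets. Fitm1, which partitions triglyceride into droplets, was at 9.24, 11.31 and 11.56 in WT and 7.42, 8.76 and 9.56 in Pparα hep-/- mice, and the difference was -2.71 (SE 0.31, adjusted p = 9.88e-09) or 6.54-fold. Cidea, which enlarges droplets, was at 7.78 to 10.85 in 6 WT mice, at 5.72 and 5.59 in WT mice 1 and 2, and at 5.72, 6.64 and 7.08 in Pparα hep-/- mice, a difference of -2.81 (SE 0.41, adjusted p = 1.45e-06). Again the 6 WT mice lay above all Pparα hep-/- mice and the other 2 did not. The droplet coat genes Plin3 (difference 0.79, SE 0.1, adjusted p = 1.45e-07) and Plin4 (1.57, SE 0.44, adjusted p = 0.00658) rose. Plin4 was not called within either wash batch alone (1.31, adjusted p = 0.107, and 1.58, adjusted p = 0.121).

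Of 18 genes of fatty acid uptake and binding 5 rose and 5 fell, or 3 and 4 with equal weights. Lpl, the lipase that frees fatty acids from lipoproteins, rose at its brighter probe (8.12, 8.84 and 11.48 in WT and 9.73, 10.64 and 11.57 in Pparα hep-/- mice, difference 1.83 (SE 0.33, adjusted p = 5.39e-05)), while its other probe differed by 0.12 (adjusted p = 0.254). Fabp7, a fatty acid binding protein of brain, rose by 1.03 (adjusted p = 0.000406, and 0.0741 within the first wash batch). Acsl3, an acyl-CoA synthetase of droplets, was below every WT mouse in all 8 Pparα hep-/- mice, with a difference of -0.96 (SE 0.18, adjusted p = 5.23e-05). Slc27a1, a fatty acid transporter, fell by 0.8 (SE 0.086, adjusted p = 1.59e-09). Of 14 triglyceride synthesis genes 2 rose and 2 fell, or 2 and 0 with equal weights, and of 18 lipogenesis and desaturation genes 2 rose and 6 fell, against 0 and 3 with equal weights. Pparg, the adipogenic isotype, differed by 0.72 (SE 0.23, adjusted p = 0.0146) and was lowest in WT mice 1 and 2 (9.97 and 9.68). Without these 2 mice the difference was 0.51 (adjusted p = 0.0576), and within the wash batches it was 0.9 (adjusted p = 0.0673) and 0.48 (adjusted p = 0.316). It was among the 4 nuclear receptor genes of 20 that rose, with 4 lower, or 3 and 2 with equal weights, and 2 rose without WT mouse 1 or Pparα hep-/- mouse 7, and 2 rose and 2 fell without Pparα hep-/- mouse 6.

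Among 17 hepatokine genes, which code for proteins that liver secretes or sheds, 4 rose and 4 fell, or 2 and 2 with equal weights, and 2 rose without WT mouse 7, Pparα hep-/- mouse 6 or Pparα hep-/- mouse 7. Vnn1, the pantetheinase that recycles vitamin B5, was at 9.04, 11.86 and 12.35 in WT and 7.77, 8.62 and 10.03 in Pparα hep-/- mice, and fell by 2.88 (SE 0.34, adjusted p = 1.25e-08), or 7.36-fold. Igfbp2, an IGF carrier, fell by 1.83 (SE 0.31, adjusted p = 2.15e-05). Fgf21, the hormone that PPARα induces in fasting, was at 6.3, 8.65 and 9.69 in WT and 6.14, 7.19 and 7.97 in Pparα hep-/- mice, with overlapping ranges. Its difference of -1.48 (SE 0.37, adjusted p = 0.00258) was not called with equal weights (adjusted p = 0.115), and on the control diet it was -2.85 (adjusted p = 1.39e-06). The 2 differences were not called different (adjusted p = 0.106).

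**Figure D3:**
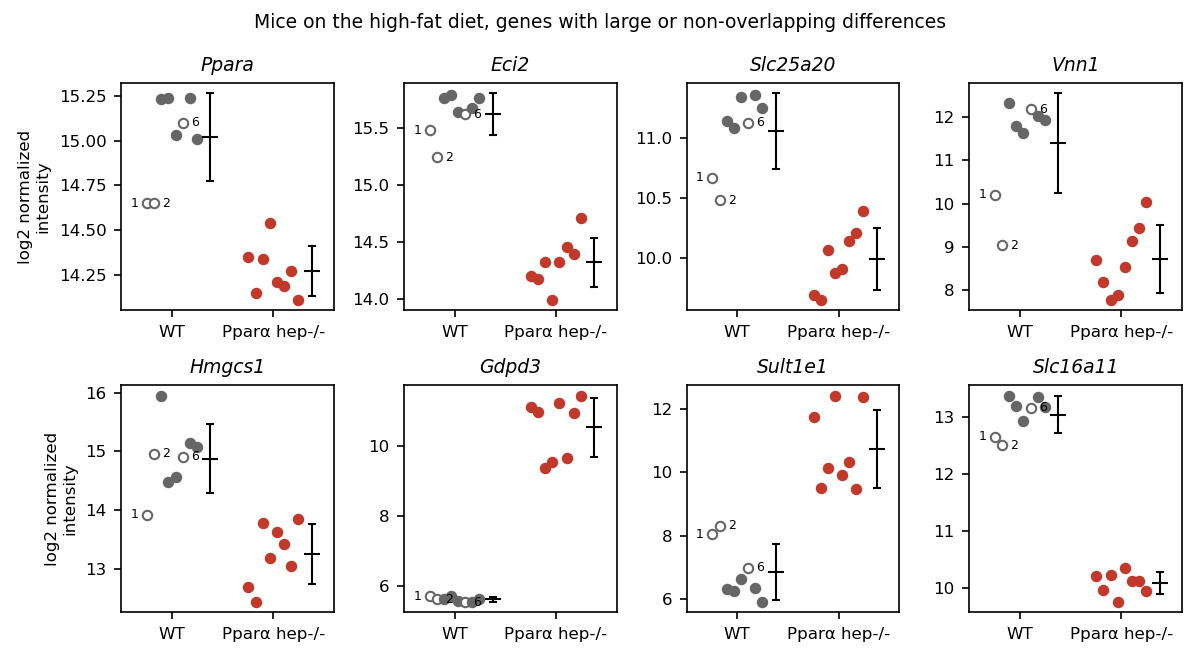
Log2 normalized intensity of 8 genes in each WT and Pparα hep-/- mouse on the HFD (points), with the mean and SD of 8 mice beside each group. WT mice 1, 2 and 6 are open and numbered. Ppara, Eci2, Slc25a20, Hmgcs1 and Slc16a11 are lower in every Pparα hep-/- mouse than in every WT mouse, Gdpd3 and Sult1e1 are higher in every one, and Vnn1 overlaps through WT mouse 2.

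Cholesterol synthesis was the list with the largest share of genes that fell. Of 24 tested genes of the pathway and of LDL uptake, 23 fell and 0 rose, with a median difference of -1.09, and 23 fell with equal weights as well. For 12 genes the mice of the genotypes did not overlap. Hmgcs1, the HMG-CoA synthase of the cytosol, was at 13.92, 14.94 and 15.95 in WT and 12.43, 13.3 and 13.84 in Pparα hep-/- mice, a difference of -1.65 (SE 0.27, adjusted p = 1.28e-05) or 3.13-fold. Cyp51, the lanosterol demethylase, was at 11.51, 12.22 and 12.82 and 10.2, 10.71 and 11.33, a difference of -1.57 (SE 0.24, adjusted p = 2.56e-06). Msmo1, a later sterol demethylase, differed by -1.37 (SE 0.21, adjusted p = 2.6e-06), also with no overlap. Without WT mice 1, 2 and 6, 23 genes fell.

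On the control diet the median difference of the same list was above 0, at 0.46. Pparα hep-/- mice were higher than WT mice in 8 of the 24 genes and lower in 2, against 14.2% higher and 13.3% lower over all genes on that diet, and 14 genes were not called. For 20 of 24 genes the genotype difference on the HFD was called different from that on the control diet. Over all genes 12.5% were called so, which is 2053 genes, and with equal weights 183 genes were. Hmgcs1 was at 12.73, 13.33 and 14.05 in WT mice and 12.94, 13.82 and 15.43 in Pparα hep-/- mice on the control diet, with overlapping ranges, and the differences on the 2 diets differed by -2.29 (adjusted p = 0.000328). Msmo1 was higher by 1.23 in Pparα hep-/- mice on the control diet (adjusted p = 7.22e-05), and the test of the difference gave -2.6 (adjusted p = 8.35e-07). Sqle, the squalene epoxidase, was -1.13 on the HFD (adjusted p = 0.00642, and 0.127 within the first wash batch) and 1.28 on the control diet (adjusted p = 0.0052), and the test of the difference gave -2.41 (adjusted p = 0.00102). Pparα-/- mice on the HFD were below the same WT mice in Hmgcs1 (-2.05) and Msmo1 (-0.87), and this comparison shares the WT mice.

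Bile acid genes moved both ways. Of 19, 9 fell and 4 rose, or 3 and 3 with equal weights, and 5 fell without WT mouse 7. Abcg8, of the canalicular sterol exporter, fell by 1.21 (SE 0.15, adjusted p = 3.35e-08). Cyp7a1, the rate-limiting enzyme of bile acid synthesis, was at 10.76, 11.34 and 11.92 in WT and 9.49, 9.94 and 10.62 in Pparα hep-/- mice with no overlap, and its difference of -1.21 (SE 0.39, adjusted p = 0.0165) had an adjusted p of 0.0709 with equal weights. Slco1a4, an organic anion carrier, rose by 1.69 (SE 0.23, adjusted p = 5.16e-07). Of 14 apolipoprotein genes 3 rose and 1 fell, or 3 and 0 with equal weights, and Apoa4, which liver makes when triglyceride accumulates, rose by 1.65 (SE 0.24, adjusted p = 1.09e-06).

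The 10 largest increases with no overlap were Gdpd3, Sult1e1, Tuba8, Lrtm2, Hamp2, Mogat2, Adam11, Pcp4l1, Lrtm1 and Aqp4. They were chosen for their size, so the size is a description. Gdpd3, a lysophospholipase D (chr7:133914520-133914693, mm9), was well above background in 1 WT mouse and in all 8 Pparα hep-/- mice, at 5.55, 5.63 and 5.73 and 9.37, 10.93 and 11.42, a measured difference of 4.87 (SE 0.27, adjusted p = 2.82e-18). Sult1e1, which inactivates oestrogens (chr5:88005187-88005246, mm9), was at 5.9, 6.49 and 8.32 in WT and 9.48, 10.23 and 12.42 in Pparα hep-/- mice, a difference of 4.2 (SE 0.62, adjusted p = 2.03e-06) or 18.3-fold. Tuba8, an α-tubulin, rose by 3.16 (adjusted p = 2.44e-11). Lrtm2 and Lrtm1, a pair of leucine-rich repeat membrane proteins, rose by 3.07 (adjusted p = 1.01e-07) and 2.39 (adjusted p = 3.4e-07), with Lrtm2 well above background in 1 WT mouse. Hamp2, a hepcidin whose sequence is close to that of Hamp, rose by 2.99 (adjusted p = 5.04e-05).

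Mogat2, an enzyme of triglyceride synthesis, rose by 2.67 (adjusted p = 1.91e-09) at its brighter probe, and its other probe differed by 0.096 (adjusted p = 0.61). For Adam11, of the disintegrin family, the values were 2.59 (adjusted p = 2.8e-14) and 0.046 (adjusted p = 0.696). For Aqp4, a water channel, they were 2.29 (adjusted p = 1.18e-09) and 0.26 (adjusted p = 0.168). These 3 increases thus rest on 1 probe each. Pcp4l1, a relative of the calmodulin-binding Pcp4, rose by 2.44 (adjusted p = 3.83e-09). Aqp4 stood out from the other 9 in Pparα-/- mice, where it was -0.21 from WT (adjusted p = 0.496), and Pparα hep-/- mice were above Pparα-/- mice by 2.5 (adjusted p = 1.68e-12).

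The 10 largest decreases with no overlap were Ccl27a, Slc16a11, Serinc2, Gm3893, Fam205a2, Caln1, Unc13b, Bik, Slc35f2 and Gm32872. Slc16a11, a monocarboxylate transporter of liver (chr11:70029833-70029892, mm9), was at 12.5, 13.17 and 13.37 in WT and 9.76, 10.12 and 10.36 in Pparα hep-/- mice, a difference of -3.02 (SE 0.18, adjusted p = 1.08e-17) or 8.12-fold. On the control diet it was at 11.58, 12.84 and 13.17 and 10.86, 11.72 and 12.85, a difference of -0.88 (adjusted p = 0.000613), and the difference was larger on the HFD by 2.14 in size (-2.14, adjusted p = 1.59e-06). Serinc2, of a family of membrane serine carriers, fell by 2.9 (adjusted p = 2.11e-14), and Caln1, a calcium-binding calneuron, by 2.65 (adjusted p = 2.13e-17). Slc35f2, a solute carrier, fell by 2.41 (adjusted p = 5.59e-10), and was well above background in 3 of 8 Pparα hep-/- mice. The predicted gene Gm32872 fell by 2.33 (adjusted p = 2.09e-08), against -0.26 on the control diet (adjusted p = 0.59).

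Several of the largest decreases lay close together in the genome, which was noticed after their values had been seen. On chr4 of mm9 the chemokine Ccl27a (chr4:41716345-41716404), Fam205a2 (chr4:41841838-41841897), Gm20878, 4933409K07Rik, Vcp and Unc13b (chr4:43277637-43277696), a priming factor of vesicle release, were all below WT with no overlap. Ccl27a was at 10.7, 11.42 and 11.68 in WT and 7.07, 7.52 and 9.91 in Pparα hep-/- mice, a difference of -3.35 (SE 0.38, adjusted p = 6.12e-09), and in Pparα-/- mice it was -0.66 from WT (adjusted p = 0.152). Fam205a2 (-3.17, adjusted p = 1.09e-08), 4933409K07Rik (-2.9, adjusted p = 4.37e-10), Unc13b (-1.02, adjusted p = 0.0067) and Vcp (-0.14, adjusted p = 0.0295) were below WT in Pparα-/- mice as well, and Gm20878 was not called there (-0.22, adjusted p = 0.313). Pparα hep-/- mouse 6 was the highest of its group in Ccl27a (9.91), Fam205a2 (7.84), 4933409K07Rik (7.54), Unc13b (8.99) and Gm3893 (8.59). This mouse also carried the highest weight of the 16 arrays, at 2.53, and so counted most in the fitted differences of these genes. Fam205a2 was well above background in 1 of 8 Pparα hep-/- mice, and its other probe differed by 0.032 (adjusted p = 0.865). Several of these genes have near-identical copies nearby, so which copy a probe reads is uncertain.

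The window of 5 Mb with these chr4 genes held 6 genes without overlap of 83 tested (7.23%). A window on chr17 with 5 of 33 (15.2%) and a pair on chr8 with 5 of 68 (7.35%) and 5 of 90 (5.56%) had similar or higher shares, with genes above and below WT in each.

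Genes near Ppara were looked at too, because the targeted allele came with its flanking chromosome. Within 10 Mb of Ppara, with Ppara left out, 17 of 288 tested genes had no overlap between the genotypes (5.9%), 11 below and 6 above, against 277 of 15725 on other chromosomes (1.76%), 2 of 194 at 10 to 20 Mb (1.03%) and 5 of 184 farther away on the same chromosome (2.72%). Called genes were 38.9% within 10 Mb, 30.9% at 10 to 20 Mb, 36.4% farther away and 30.9% on other chromosomes, and with equal weights 16.7%, 9.28%, 17.9% and 11.3%. Of the 17 genes, 14 were called on the control diet too, and 16 in Pparα-/- against WT mice with the same sign, a comparison that shares the WT mice. Of the 277 genes without overlap on other chromosomes the counts were 177 and 228. Bik, a BH3 protein of apoptosis (chr15:83374048-83374107, mm9), was at 8.61, 8.88 and 9.23 in WT and 6.25, 6.35 and 6.59 in Pparα hep-/- mice, a difference of -2.52 (SE 0.12, adjusted p = 7e-21). Cdpf1, whose probe lies 0.01 Mb from that of Ppara, was at 8.89, 9.15 and 9.49 and 6.78, 7.3 and 7.7, a difference of -1.79 (SE 0.1, adjusted p = 5.99e-18).

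Ift27, of cilia transport, fell by 0.92 (SE 0.043, adjusted p = 9.91e-21), Cdc42ep1, a Cdc42 effector, by 1.42 (SE 0.077, adjusted p = 1.22e-18) and Tafa5, a secreted peptide, by 1.8 (SE 0.14, adjusted p = 3e-13). Poldip3, a polymerase-interacting protein, rose by 0.69 (SE 0.039, adjusted p = 3.07e-18), with values of 12.4, 12.48 and 12.69 in WT and 13.08, 13.19 and 13.32 in Pparα hep-/- mice. These genes were chosen after their values were seen. The loss of PPARα and the chromosome segment that travels with the targeted allele cannot be told apart for them.

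**Figure D4:**
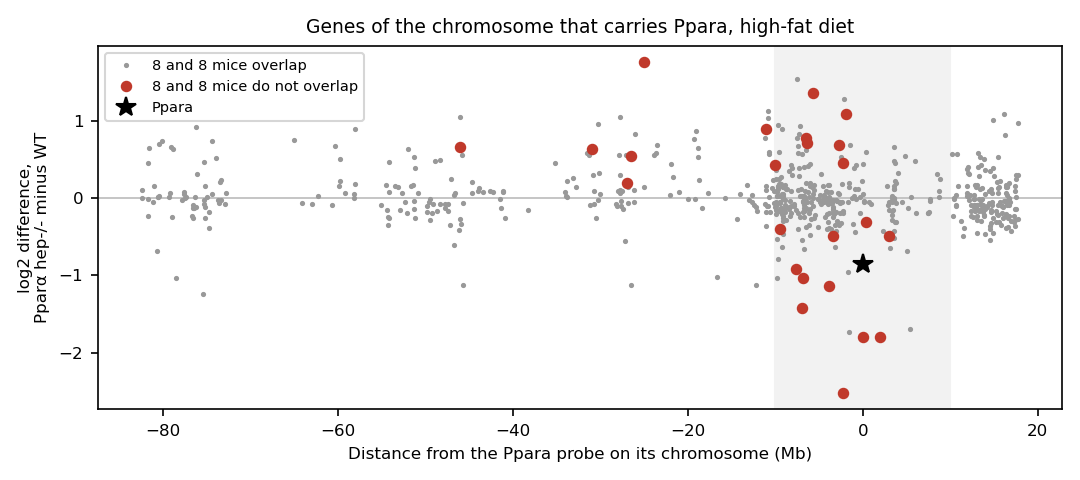
Log2 difference of Pparα hep-/- minus WT mice on the HFD for each tested gene on the chromosome of Ppara, by its distance from the Ppara probe in Mb. Large points are genes in which the 8 and 8 mice do not overlap, the star is Ppara, and the shaded band is within 10 Mb, which holds 17 of the 24 large points.

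Most genes of the extracellular matrix list and of a macrophage marker list were higher in Pparα hep-/- livers in the weighted fit. Of 35 collagen and matrix genes 27 rose and 0 fell, with a median difference of 0.98, and 12 rose with equal weights. Col1a1, a chain of type I collagen, was at 7.53, 8.63 and 12.64 (lowest, median, highest) in WT and 10.38, 11.19 and 11.69 in Pparα hep-/- mice, a difference of 2.27 (SE 0.5, adjusted p = 0.000588), with an adjusted p of 0.0544 at equal weights. The highest value of all 16 mice was that of WT mouse 6, and the other 7 WT mice were below every Pparα hep-/- mouse. Col1a2, its partner chain, rose by 1.95 (SE 0.38, adjusted p = 0.000138).

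Of 13 markers listed for recruited macrophages 12 rose and 0 fell, and 4 rose with equal weights. The list also holds genes of macrophages in general, so it does not separate recruited from resident cells. Gpnmb, a glycoprotein of lipid-laden macrophages, was at 4.76, 5.6 and 9.19 in WT and 7.98, 9.25 and 10.61 in Pparα hep-/- mice, a measured difference of 3.41 (SE 0.56, adjusted p = 1.14e-05), and was well above background in 3 of 8 WT mice. Trem2, a lipid receptor of macrophages, differed by 1.98 (SE 0.45, adjusted p = 0.000788), with an adjusted p of 0.0843 at equal weights. The summed level of the 13 markers was 13.52 to 16.31 in WT and 15.02 to 16.37 in Pparα hep-/- mice. Of 8 stellate cell markers 7 rose (3 with equal weights), among them Dcn, a matrix proteoglycan, by 1.00 (adjusted p = 0.00012) and Pdgfrb, a receptor of stellate cells, by 1.01 (adjusted p = 0.000553, and 0.0613 with equal weights). Their summed level was 14.07 to 16.35 in WT and 15.19 to 16.1 in Pparα hep-/- mice. Of 6 Kupffer cell markers 2 rose, of 9 neutrophil markers 1 rose, and of 9 endothelial markers 4 rose, against 1, 0 and 1 with equal weights. Over all genes 17.2% rose, or 5.84% with equal weights. Only 1 endothelial marker rose without Pparα hep-/- mouse 6, and 2 without Pparα hep-/- mouse 5 or WT mouse 4. Leaving out 1 array gave 0 to 3 neutrophil markers that rose, with 3 without WT mouse 1, 2 or 6 or Pparα hep-/- mouse 3 or 4. Of 11 T and NK cell markers 1 rose and 1 fell, of 4 cholangiocyte markers 1 rose, and of 4 pancreas markers 2 fell. With equal weights 1 T and NK cell marker and 1 pancreas marker fell, and 0 of the cholangiocyte markers were called. The part of cell numbers in these counts was not tested.

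In the weighted fit, genes of several inflammatory lists rose more often than the 17.2% over all genes, and most of these calls were lost with equal weights. Of 45 NF-kappa B, TNF and TLR genes 21 rose and 2 fell, against 3 and 1 with equal weights. Jun, a subunit of AP-1, was above every WT mouse in all 8 Pparα hep-/- mice (10.1, 10.67 and 11.66 and 11.76, 12.03 and 12.16), by 1.25 (SE 0.22, adjusted p = 2.47e-05), and Tnfaip3, an inhibitor of NF-kappa B, rose by 1.27 (SE 0.24, adjusted p = 8.33e-05). Tnf itself fell, by 1.09 (SE 0.18, adjusted p = 1.11e-05), at 1 probe, and differed by 0.19 (adjusted p = 0.372) at the other. Of 35 chemokine and receptor genes 13 rose and 3 fell, or 3 and 3 with equal weights. Ccl2, which draws monocytes, rose by 1.62 (SE 0.4, adjusted p = 0.00182, and 0.0963 within the first wash batch), and the receptor Cx3cr1 by 1.6 (SE 0.35, adjusted p = 0.00052, and 0.123 with equal weights).

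Interferon-stimulated genes rose in 21 of 37 cases and fell in 0, with 5 higher at equal weights. On the control diet 24 of the 37 were higher in Pparα hep-/- mice, against 14.2% over all genes. Usp18, which removes ISG15 from proteins, rose by 1.08 (SE 0.24, adjusted p = 0.00057, and 0.0626 within the second wash batch), and Oas1a, a sensor of double-stranded RNA, by 1.22 (adjusted p = 0.000142, and 0.0718 with equal weights). Of 12 MHC and antigen presentation genes 9 rose, and with equal weights 0 were called. H2-Aa, an MHC class II chain, was at 8.26, 9.05 and 11.58 in WT and 9.74, 10.15 and 11.14 in Pparα hep-/- mice, a difference of 1.27 (SE 0.3, adjusted p = 0.00129), and H2-Eb1 differed by 1.18 (SE 0.29, adjusted p = 0.00233), in both with WT mouse 6 above all other WT mice. Of 24 acute-phase genes 5 rose (20.8%, near the 17.2% over all genes) and 0 fell, with 0 called at equal weights. The count was 10 without WT mouse 1 and 9 without WT mouse 2, which were singled out by a gene of this list, Lcn2. Lcn2 was at 11.06, 12.26 and 17.64 in WT and 12.83, 14.01 and 15.99 in Pparα hep-/- mice, a difference of 1.93 (SE 0.61, adjusted p = 0.0166), with an adjusted p of 0.664 at equal weights.

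Of 21 antioxidant and metallothionein genes 13 rose and 0 fell, or 6 with equal weights. Gsta2, a glutathione transferase, was at 7.74, 11.84 and 13.24 in WT and 13.04, 14.07 and 14.24 in Pparα hep-/- mice, a difference of 2.38 (SE 0.4, adjusted p = 1.88e-05). Of 21 cell cycle genes 12 rose and 0 fell, or 2 with equal weights, which are Cdkn1a, the inhibitor p21 (difference 2.72, adjusted p = 3.19e-05, and 0.11 within the first wash batch), and Mcm6, of the replicative helicase (1.45, adjusted p = 7.28e-05). Without WT mouse 4 the count of cell cycle genes that rose was 7, and without WT mouse 8 it was 6. Of 15 clock genes 4 fell, and with equal weights 0 were called, as without Pparα hep-/- mouse 6; 2 fell without WT mouse 3, WT mouse 4 or Pparα hep-/- mouse 5. Of 32 genes of protein processing in the endoplasmic reticulum 3 rose and 4 fell on the HFD, or 1 and 2 with equal weights. Over all genes 17.2% rose and 14% fell. On the control diet 1 of the 32 was higher and 25 were lower, against 14.2% and 13.3% over all genes. The median differences were -0.14 on the HFD and -0.39 on the control diet. For 7 of the 32 the differences on the diets were called different, against 12.5% over all genes. On the HFD 7 fell without Pparα hep-/- mouse 4, and 1 rose without WT mouse 7.

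Adipsin had the largest fall of the genes named here. Cfd was at 5.74, 14.18 and 15.51 in WT and 5.62, 7.13 and 8.74 in Pparα hep-/- mice, with 6 WT mice above 13 and 2 in the range of the Pparα hep-/- mice, and the fitted difference was -6.93 (SE 0.63, adjusted p = 2.44e-11). It is listed with the white adipocyte markers, of which 4 were tested: Cfd fell, 1 rose and 2 were not called, and with equal weights Cfd alone was called. The adipocyte markers Adipoq and Plin1 were not tested because too few arrays were above background. The summed level of the 4 markers was 11.44 to 15.57 in WT and 11.19 to 11.73 in Pparα hep-/- mice. This range is mostly that of Cfd, as in WT mouse 7, where Cfd alone was at 15.51.

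Liver genes that differ between the sexes were set side by side because growth hormone patterns drive them. Of 19 male-biased genes 12 fell and 0 rose, but with equal weights 0 were called, and within the first wash batch alone 0 were called too. Without Pparα hep-/- mouse 5 the count that fell was 7, and without mouse 6 it was 5. Hsd3b5, a male-specific steroid enzyme, was at 7.6, 14.05 and 15.16 in WT and 7.15, 11.85 and 14.05 in Pparα hep-/- mice, a difference of -2.75 (SE 0.83, adjusted p = 0.0117) with an adjusted p of 0.39 at equal weights. Both groups spanned more than 6 log2 units. Cyp4a12b, a male-biased ω-hydroxylase, differed by -1.41 (SE 0.37, adjusted p = 0.0038), with an adjusted p of 0.224 at equal weights. Of 16 female-biased genes 6 rose and 1 fell, or 5 and 1 with equal weights. Ntrk2, a neurotrophin receptor, was at 6.89, 7.66 and 9.24 in WT and 8.9, 9.55 and 10.36 in Pparα hep-/- mice, a difference of 2.12 (SE 0.31, adjusted p = 1.15e-06).

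Of 38 drug-metabolising P450 genes of families 1 to 3, 7 rose and 4 fell, or 4 and 0 with equal weights, and 4 rose without Pparα hep-/- mouse 5. Cyp2b13, a female-biased P450, was at 4.7, 5.63 and 10.22 in WT and 6.73, 8.68 and 9.62 in Pparα hep-/- mice, a difference of 2.72 (SE 0.34, adjusted p = 4.22e-08), and it was well above background in 3 of 8 WT mice. Its close relative Cyp2b9 differed by 1.73 (SE 0.62, adjusted p = 0.0318), with an adjusted p of 0.106 at equal weights, and was at 5.35 and 4.84 in WT mice 1 and 2 against 9.44 to 14.8 in the other 6. Without these 2 mice Cyp2b9 differed by 1.02 (adjusted p = 0.136), and within the wash batches by 0.72 (adjusted p = 0.628) and 2.45 (adjusted p = 0.0594). Pparα-/- mice on the HFD were lower than WT in both genes (-0.94 and -5.42), and Pparα hep-/- mice were higher than Pparα-/- mice by 3.66 (adjusted p = 2.93e-13) and 7.15 (adjusted p = 4.23e-14). Probes may not separate these paralogues.

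Of 5 flavin monooxygenase genes 2 rose, also with equal weights, and 1 to 2 rose when 1 array was left out. Fmo5 was above every WT mouse in all 8 Pparα hep-/- mice (15.22, 15.51 and 15.68 and 15.79, 16.07 and 16.57), by 0.73 (SE 0.11, adjusted p = 1.65e-06). Of 14 carboxylesterase genes 5 rose and 3 fell, or 5 and 0 with equal weights, and the count that fell was 1 without WT mouse 7 or Pparα hep-/- mouse 6 and 5 without WT mouse 2. Of 21 glucose and insulin genes 3 rose and 4 fell, or 3 and 2 with equal weights, and 2 fell without WT mouse 8 or Pparα hep-/- mouse 6. Of 32 amino acid and urea genes 7 rose and 3 fell, or 3 and 2 with equal weights. Leaving out 1 array gave 3 to 7 that rose and 1 to 5 that fell, and moved a count by over 1.5 times for WT mice 1, 4, 5, 6 and 8 and Pparα hep-/- mice 2 and 6.

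**Figure D5:**
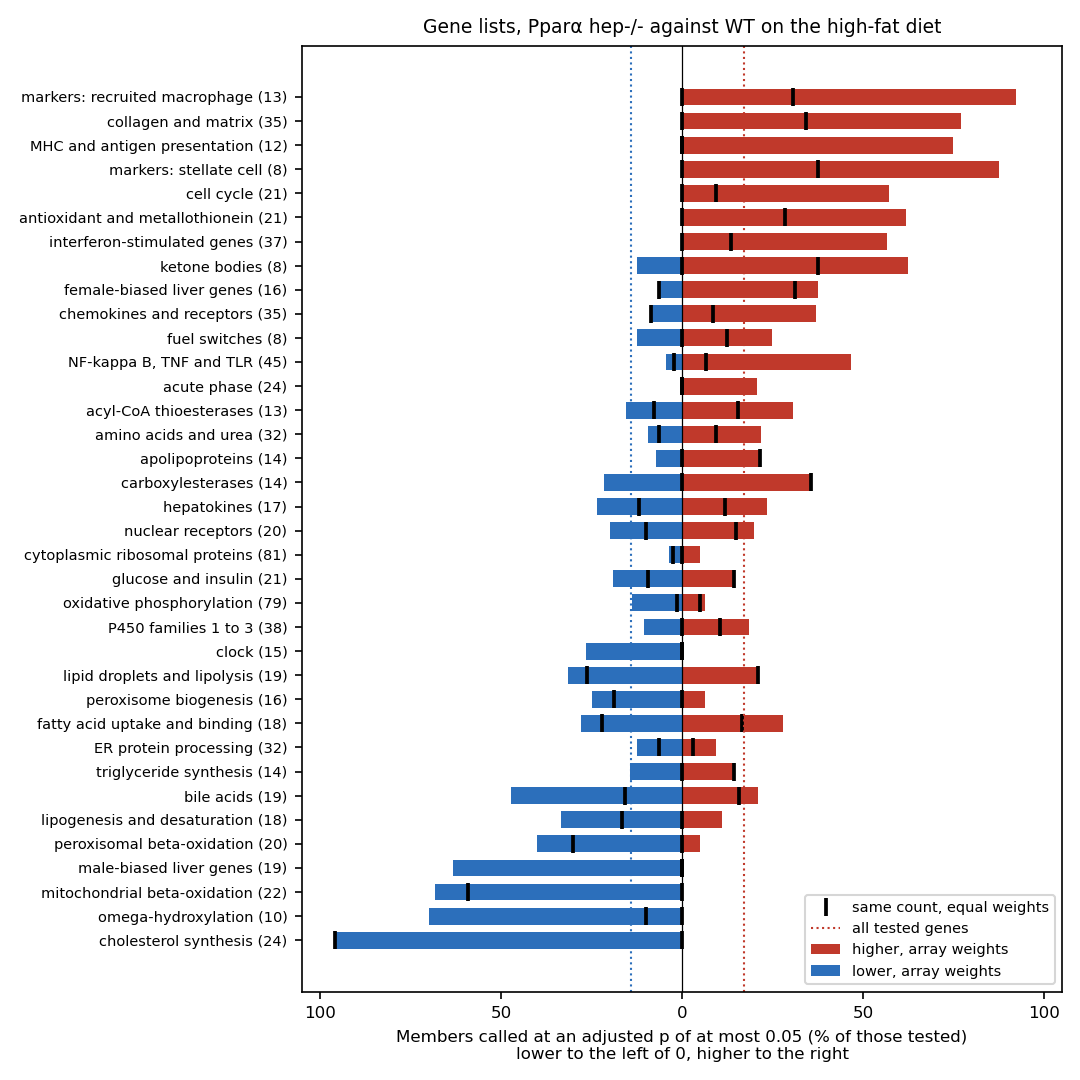
Share of the tested genes of each list (number in brackets) that were higher (right of 0) or lower (left of 0) in Pparα hep-/- than in WT mice on the HFD, in percent, with an adjusted p no higher than 0.05. Black ticks give the share with equal array weights and dotted lines the share over all tested genes (17.2% higher and 14% lower). Cholesterol synthesis reaches 95.8% lower in both fits, whereas the MHC list goes from 75% higher to 0.

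The genotype difference on the HFD was set beside that on the control diet, which was measured in other mice. On the control diet 4506 genes were called (27.4%). Both diets called 1605 genes with the same sign, 31.4% of the HFD genes and 35.6% of the control diet genes, and 151 with opposite signs. Across genes, which are not independent replicates, the differences on the diets correlated at r = 0.519. The difference itself differed between the diets for 2053 genes (12.5%), 970 of them among the genes called on the HFD, and for 183 genes with equal weights. Eci2 (-1.25 on the control diet), Slc25a20 (-1.08) and Gdpd3 (4.28) were among those where the test of the difference was not passed (adjusted p = 0.739, 0.827 and 0.359).

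The same Pparα hep-/- mice were also set against Pparα-/- mice on the HFD, and 5375 genes were called (32.7%). Of the 22 mitochondrial β-oxidation genes 7 were called in this test, and of the 10 ω-hydroxylation genes 5. The genes given here were chosen after their values were seen. Slc25a20 was -1.16 from WT in Pparα hep-/- mice and -1.89 in Pparα-/- mice, Vnn1 -2.88 and -4.7, Fitm1 -2.71 and -4.28, and Cyp4a10 -1.59 and -3.67. In each of the 4 the Pparα hep-/- mice were the higher of the genotypes (adjusted p = 2.23e-06, 9.35e-06, 3.44e-05 and 0.000455). For Eci2 the genotypes differed by 0.098 (adjusted p = 0.377). Both comparisons against WT share the 8 WT mice.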

How the data were processed

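RNA from the liver of each mouse was labelled with Cy3 and hybridised to an Agilent 8x60K array by the authors. The deposited spot intensity is the median pixel intensity from Feature Extraction 10.10.1.1, with no background subtraction. Feature Extraction also gave a processed intensity, after background subtraction and detrending. The authors deposited a log2 table too, made by filtering, a correction for the washing bath and quantile normalization, which served as an alternative.

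Median intensities were taken to log2, outlier spots were left out, the spots of a probe were averaged, and a probe was kept if 4 or more of the 8 arrays of any group had it well above background. Values were quantile normalized over 48 arrays. limma 3.58.1 in R 4.3.3 was fitted to all 48 arrays with a mean per group, the wash batch (5 and 3 Pparα hep-/- mice and 4 and 4 WT mice on the HFD in the first and the second batch) and array weights, with moderated tests and Benjamini-Hochberg adjustment within each contrast. The 16 HFD arrays held 53 missing values, and each probe was fitted without its missing arrays. Probes were named through RefSeq for 27523 of 33323. In simulated data 77% of 100 probes changed by 0.5 log2 and 96% of 100 changed by 1 were called, with 11 of the unchanged probes. The simulated noise was normal, independent and scaled by the fitted array weights, and only these few probes changed. The simulation followed the model of the weighted fit, so it could not test whether the weights suit these data.

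The genes named are Ppara, the 10 largest called changes in each direction with no overlap between mice, at most the 2 largest called changes in each direction of each list, and genes named in the study's text. Values are given for 97 genes, the other genes picked by this rule are only counted in their lists, and 3 genes are not reported here. Genes added after their values were seen are marked so in the text or belong to a list as further members of it. The comparison, the lists and the rule were chosen with earlier results of these data known. Nothing in the labels ties mice to a shared litter or cage, so p-values measure the spread between these mice. Alternatives were the weights, the wash term, slides, background, normalization, filters, the authors' table, each wash batch, the replicate number as a block and leaving out each array.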

Additional observations from a re-analysis of the deposited data

Results flagged for a closer look

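The genotype difference on the HFD was called different from that on the control diet for 30 of the 97 genes named, by limma's interaction test, and 7 of these were called with equal array weights as well. The values below are the HFD difference less the control diet difference, on the log2 scale. Cholesterol genes made up 4 of the 7: Hmgcs1 -2.29, Cyp51 -2.02, Sqle -2.41 and Msmo1 -2.59. The other 3 were Slc16a11 -2.14, Gm32872 -2.07 and Cyp2b13 2.95. In the 23 others the call was lost with equal weights. Among these, the values of fatty acid and peroxisome genes were -0.42 for Ppara, -1.02 for Abcd2, -0.54 for Pex16, -0.28 for Acot8, -0.44 for Acot12, -1.45 for Acot2, -2.3 for Cyp4a10, -2.36 for Cyp4a31 and -2.33 for Cyp4a12b. Lipid storage and uptake genes gave -1.66 for Fitm1, 0.52 for Plin3, 2.43 for Lpl and -0.65 for Slc27a1. Of the remaining genes, the value was 1.86 for Tuba8, 2.49 for Lrtm2, -1.14 for Slc35f2, 2.34 for Ntrk2, 0.72 for Fmo5, 1.2 for Jun, 2.97 for Gpnmb, -5.21 for Cfd, 0.61 for Cdpf1 and -1.05 for Tafa5.

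A mouse lay far from the other 7 of its group in 13 of 194 tests of a gap against the range of the group, where chance gives about 1 in 20. In 4 of them the mouse was WT mouse 6, with log2 intensities of 11.48 for Lpl, 11.58 for H2-Aa, 14.66 for H2-Eb1 and 14.24 for Col1a2. Pparα hep-/- mouse 6 was the highest of its group in Ccl27a (9.91), Gm3893 (8.59), Fam205a2 (7.84), Unc13b (8.99), 4933409K07Rik (7.54) and Fmo5 (16.57). The remaining values were 12.38 for Acot12 in Pparα hep-/- mouse 3, 8.88 for Slc27a1 in Pparα hep-/- mouse 4 and 8.8 for Gm20878 in WT mouse 4.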

How the results depend on the processing

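The 8893 called probes became 3244 without array weights, 5633 without the filter on dim probes, 2305 in wash batch 1 alone, 5266 in wash batch 2 alone, and 6914 to 9752 when 1 array was left out. Probes called different between the diets numbered 3472, against 298 without array weights, 2185 without a wash term, 2122 with the slide as a block, 1226 without the filter, 1319 in wash batch 1, 166 in wash batch 2, and 2118 to 3914 when 1 array was left out. Between Pparα hep-/- and Pparα-/- mice 10188 probes were called, and 6047 without weights. Ppara kept its direction and its call under all alternatives, at -0.99 to -0.75. Of the 96 other genes with values in the text 93 were called. Of these, 63 kept call and direction under every alternative in which they were tested, and 0 reversed. Without weights 20 of the 93 lost the call, within wash batch 1 alone 24 and within wash batch 2 alone 12. Of genes called with equal weights, those lost in the first batch were Acot10, Plin4, Fabp7, Pdk4, Pparg, Ccl2, Cdkn1a and Sqle, and in the second Plin4, Gdf15, Pparg and Usp18. Leaving out 1 array ended the call of Acox2 for 12 of the 16 arrays (adjusted p up to 0.196) and of Cyp2b9 for 7 (WT mice 1, 2, 4 and 5 and Pparα hep-/- mice 5, 6 and 7, up to 0.107). It did so without WT mouse 7 for Cyp4a10 (adjusted p = 0.0665), Cyp4a31 (0.0685), Cyp4a14 (0.104), Crat (0.0807) and Cyp7a1 (0.0819), and without WT mouse 8 for Cyp4a31 (0.0542), Cyp4a14 (0.0545), Crat (0.0635) and Lcn2 (0.0927). The same held for Cyp4a14 without Pparα hep-/- mouse 1 (0.0628), Lcn2 without WT mouse 5 (0.0542), Hsd3b5 without Pparα hep-/- mouse 5 (0.0568) or 6 (0.0765) and Cyp4a12b without Pparα hep-/- mouse 6 (0.0507). Acot2, not called, was -0.011 without WT mice 1 and 2. Acot3, not called, was -0.003 with the filter on all 8 arrays, -0.50 in the first wash batch, -0.56 without WT mice 1 and 2, -0.52 without WT mice 1, 2 and 6, and -0.32 to 0.444 when 1 array was left out. The cause of these shifts was not tested. Dim probes limit what can be seen, as in Gdpd3 and Lrtm2.

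With the replicate number as a block, 7475 probes were called between the genotypes on the HFD, 2276 between the diets and 10192 between Pparα hep-/- and Pparα-/- mice. Same-numbered mice did not deviate together in every pair (r of -0.258 to 0.344 over 8 pairs, 4 over 0.1, median 0.103, against a median of 0 for different numbers, and 2 of 8 Pparα hep-/- mice closest to their own number), so the numbers were not taken to pair the mice.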
